A study of Mus musculus with 6 samples.

Results

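Short stretches of Ezh2 binding, 3 to 5 kb long, were examined in mouse Th1 and Th2 cells. The genome was divided into 1 kb bins on chromosomes 1 to 19 and X (build mm9), and each distinct sequenced position was counted once, at the midpoint of its interval. The positions of both Ezh2 libraries were summed and set against those of both inputs. A bin was called when it held at least 10 positions in all, when Ezh2 exceeded input by at least 2-fold, and when a one-sided exact binomial test gave an adjusted p below 0.05. Of 2173237 tested bins, 27832 (1.28%) were called. Neighbouring called bins, and those parted by only 1 uncalled bin, were joined into 10345 regions, of which 1529 were 3 to 5 kb long. These are termed short regions below, and regions of 10 kb or more are termed wide regions. Of the short regions, 706 spanned 3 kb, 461 spanned 4 kb and 362 spanned 5 kb. Together they covered 5772 kb. Their number depends on the counting, since all deposited reads gave 6807 regions of this length and a stricter rule, with a fold of 4 and an adjusted p below 0.001, gave 879. The remaining regions comprised 6657 of 1 kb, 786 of 2 kb, 808 of 6 to 9 kb and 565 of 10 kb or more.

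The study compared Th1 and Th2 cells by chromatin immunoprecipitation and sequencing. Naive CD4 T cells with low CD44 and high CD62L had been taken from the spleen of C57BL/6 mice and cultured for 5 days, the first 2 with antibodies to TCRβ and CD28 and the last 3 without them. IL-2 was present at 15 ng/ml in both cultures. The Th1 culture also received 10 ng/ml IL-12 and an antibody to IL-4, and the Th2 culture received 100 ng/ml IL-4 and an antibody to IFN-γ. Each culture gave 1 library with a polyclonal Ezh2 antibody, 1 with a rabbit IgG control antibody and 1 of input DNA, so 6 libraries were available and no group had a replicate. No genotype other than the strain is named, and the sources used here do not give the age or number of mice. The labelled cell types could not be checked against marker genes, since no expression data were used. In chromatin from a whole culture, binding in fewer cells and less binding per cell cannot be told apart.

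Polycomb repressive complex 2 (PRC2), whose enzyme is Ezh2, places methyl groups on lysine 27 of histone H3, a mark of silenced genes. In mammals the complex is typically found at promoters rich in CG dinucleotides, and it can spread from such places over neighbouring chromatin, so that its domains range from a promoter's width to whole gene clusters. In helper T cells it is known for holding down the genes of the alternative lineages.

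On the chromosomes used there were 15578675 input positions from Th1 and 12862628 from Th2. The Ezh2 libraries held 10809666 positions in Th1, with 2.24 reads per position, and 14963599 in Th2, with 2.04. The control antibody was complete for Th1, with 9326717 positions. For Th2 it was used on 8 whole chromosomes, with 5053626 positions. In their file names the Th1 and Th2 Ezh2 libraries have unlike run labels, so the run and the cell type cannot be told apart. All intervals below are 95% exact (Clopper-Pearson) intervals. They cover counting error only, and every test between Th1 and Th2 compares these libraries, not the cell types.

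No annotation of mm9 was used, so the short regions are given by position and their genes were not placed from the files. By general knowledge of the mouse map, and not from any file used here, 2 of the regions on which the results turn lie at known gene starts. The region on chromosome 17 from 87153001 to 87156000 lies at the start of Epas1, which encodes the hypoxia-inducible transcription factor HIF-2α. The region on chromosome 11 from 76809001 to 76814000 lies at the start of Slc6a4, which encodes the serotonin transporter. Both had more Ezh2 positions in the Th1 library. The bases before the Slc6a4 start are shown because this region had the most Ezh2 positions among those that differed between the libraries. They are from RefSeq, build GRCm38.p6, chr11:76998347-76998596 on the plus strand, written 5′ to 3′ with CG dinucleotides in capitals.
Slc6a4 promoter: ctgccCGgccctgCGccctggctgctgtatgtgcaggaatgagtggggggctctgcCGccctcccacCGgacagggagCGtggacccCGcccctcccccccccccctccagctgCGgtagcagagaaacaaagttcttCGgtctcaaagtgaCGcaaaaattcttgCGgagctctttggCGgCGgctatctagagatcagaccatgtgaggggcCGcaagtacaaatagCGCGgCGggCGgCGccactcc
The motif searched was CG, which reads the same on both strands, and it occurred 18 times in these 250 bases. Of 32851 RefSeq mouse promoters, 21.7% held at least as many in the same stretch, and the median was 6. The count describes these letters only. Epas1 is named only.

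The short regions carried a moderate enrichment of Ezh2, at the median slightly higher in Th2. A median short region held 61 Ezh2 positions in Th1 (range 14 to 266) and 95 in Th2 (27 to 431). It held 26 positions in the Th1 input (3 to 148), 21 in the Th2 input (1 to 111) and 16 with the Th1 control antibody (2 to 70). Scaled to the total positions of each library, Ezh2 over input was 3.34-fold at the median in Th1 (range 1.12 to 16.5, middle 50% between 2.72 and 4.07). In Th2 the median was 3.88-fold (1.40 to 24.4, middle 50% between 3.07 and 4.90). The regions were chosen on the sum of these libraries, so the folds describe them and were not tested. In 1426 regions (93.3%) both cell types reached 2-fold. The fold was below 2 in Th1 in 63 regions and below 2 in Th2 in 42. It was higher in Th2 than in Th1 in 1003 regions (65.6%). Exchanging the inputs of the cell types moved the folds by over 1.5 times in 337 regions (22%), which include 6 of the 20 and 5 of the 14 regions called below.

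Summed over all short regions, Ezh2 stood 3.47-fold over input in Th1 (3.43 to 3.51), against 4.08-fold in Th2 (4.03 to 4.13). The regions held 0.932% of all Th1 Ezh2 positions and 1.07% of the Th2 ones, against 0.268% and 0.261% of the input positions. Wide regions stood higher, with 5.87-fold for Th1 (5.83 to 5.92) and 7.54-fold for Th2 (7.47 to 7.60). The shift between short and wide was gradual. The median summed fold was 3.34 at 3 kb and 3.93 at 5 kb, the shortest and longest lengths kept. It was 3.64 just outside at 2 kb and 4.11 just outside at 6 kb. The calling rule asks for enough positions in each bin, and its part in these values was not tested.

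The enrichment was highest at the centre of the short regions and fell off within a few kb on either side. The regions were chosen on these Ezh2 libraries as called bins with uncalled bins on both sides. A rise inside them follows from that choice, and the profile only describes its size. Within 500 bases of the centre, the mean density of Ezh2 positions was 3.83 times that of all tested bins in Th1 and 4.40 times in Th2. At 9 to 10 kb from the centre it was 1.77 times in Th1 and 1.78 times in Th2. The control antibody stood at 1.04 times at the centre, and the inputs at 1.14 times in Th1 and 1.10 times in Th2.

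**Figure D1:**
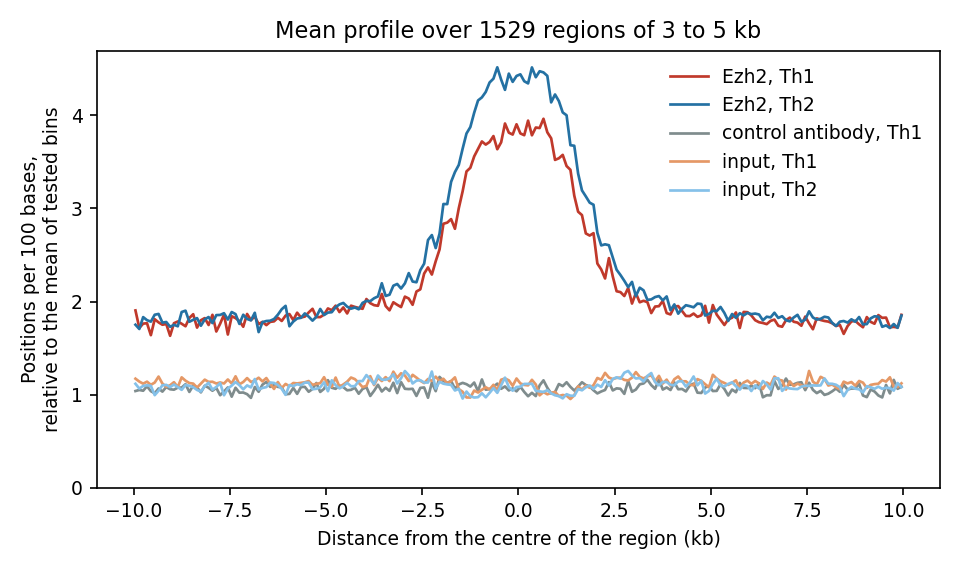
Mean density of distinct positions (vertical axis, per 100 bases, relative to the mean of all tested bins) against the distance from the centre of the region (horizontal axis, kb) over the 1529 short regions. Each line is 1 library. The Ezh2 lines peak at the centre, at 3.83 in Th1 and 4.40 in Th2 within 500 bases, while the control antibody stays near 1. The regions were chosen on the same Ezh2 libraries, so a rise inside them follows from the choice.

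The bins around short regions that were themselves not called still held more Ezh2 than the genome at large. In uncalled bins 1 kb away, Ezh2 was 1.77-fold over input in Th1 (1.74 to 1.80), against 1.95-fold in Th2 (1.91 to 1.98). At 6 to 10 kb the values were 1.36-fold (1.35 to 1.37) and 1.38-fold (1.37 to 1.39). At 51 to 100 kb they were 1.16-fold (1.15 to 1.16) and 1.13-fold (1.13 to 1.13). All uncalled tested bins together gave 0.959-fold in Th1 and 0.946-fold in Th2. Called bins were left out, so these values do not cover the most enriched surroundings. With the control antibody the same flanking bins lay between 0.863-fold and 0.938-fold, against 0.984-fold in all uncalled tested bins.

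The place of the strongest bin within a region was shared between Th1 and Th2 more often than an equal chance for every bin would give. Among regions with a clear strongest bin in both Ezh2 libraries, it was the same bin in 283 of 617 regions of 3 kb (45.9%, against 33.3% by equal chance). The share was 183 of 408 at 4 kb (44.9%, against 25%) and 154 of 327 at 5 kb (47.1%, against 20%). Both Ezh2 libraries entered the calls, and edge bins are weaker than middle bins, so the equal chance is a rough guide and no test was made. The strongest bins of the 2 inputs were the same in 36.6%, 30.4% and 23.6% of regions of 3, 4 and 5 kb. Those of the Th1 control antibody and Th2 Ezh2 were the same in 32.8%, 20.8% and 17.3%.

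The control antibody did not enter the choice of regions, but the inputs it is set against did. Calling favours bins with few input positions, which can raise the control fold. The control antibody was 1.03-fold over input at the median short region in Th1, with a range of 0.255 to 4.57. Summed over the short regions it was 1.02-fold in Th1 (1.01 to 1.04), against 0.988-fold in Th2 (0.964 to 1.01) in the 627 short regions on the 8 chromosomes used. At least 2-fold was reached in 59 short regions (3.86%), where 2.10% of the 2902 regions of 3 kb or more did so. The share was 36.2% of the 1 kb regions, 11.6% of the 2 kb regions and 0.248% of the regions of 6 to 9 kb. Without the input, relative to the mean of tested bins, the Th1 control median was 0.976 in 1 kb regions, where its fold over input was 1.67. In regions of 3 kb both values were 1.06. The same fold can come from few counts in a short bin or from low input in the chosen bins. How far these set the order of the shares was not tested.

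The 3 short regions with the highest control fold show how few input positions such values rest on. The highest was on chromosome 2 from 106533001 to 106537000, with 46 and 104 Ezh2 positions in Th1 and Th2, 7 and 17 input positions, and 20 control positions. Its control fold in Th1 was 4.57 (1.94 to 13.4), beside Ezh2 folds of 8.94 and 5.13, which became 3.16 and 14.5 with the input of the other cell type. On chromosome X from 103678001 to 103682000 the control folds were 4.06 for Th1 (1.94 to 9.74) and 1.37 for Th2, and on chromosome 6 from 135327001 to 135330000 at 3.60-fold (1.62 to 9.26) and 1.72-fold. In both places the Th2 control was less than 2-fold over its own input.

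When each cell type was called against its own input alone, the short regions divided into several kinds. A bin was called in both cell types in 850 regions (55.6%), in Th2 alone in 366 (23.9%), in Th1 alone in 162 (10.6%) and in neither in 151 (9.88%). The background of called bins was 0.992% in Th1 and 1.21% in Th2, where the Ezh2 library was deeper. Both cell types gave a call in 22.9% of the 2 kb regions and in 92.6% of those of 6 to 9 kb. A region called in 1 cell type alone is therefore not shown to differ, and the direct comparison follows below.

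Short regions lay apart from wide regions in most cases. The median distance to the nearest wide region was 711 kb, with the middle 50% between 161 and 2390 kb. A wide region lay within 10 kb of 80 short regions (5.23%), within 100 kb of 310 (20.3%) and within 1 Mb of 886 (57.9%). For 643 (42.1%) none lay within 1 Mb. Compared with the genome, they were nevertheless nearer to wide regions than a tested bin was, since 0.948% of all tested bins lay within 10 kb of a wide region, 4.69% within 100 kb and 28.7% within 1 Mb. The share within 100 kb was 21.2% for 1 kb regions, 21.9% for 2 kb regions and 20.3% for regions of 6 to 9 kb. Among wide regions, it was 27.7% for those of 10 to 19 kb and 37.0% for those of 20 kb or more, each measured to another wide region. No test was made of these shares, as neighbouring regions are not independent. The share for short regions was 10.4% under the stricter rule for calling bins and 7.46% when wide meant 20 kb or more.

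**Figure D2:**
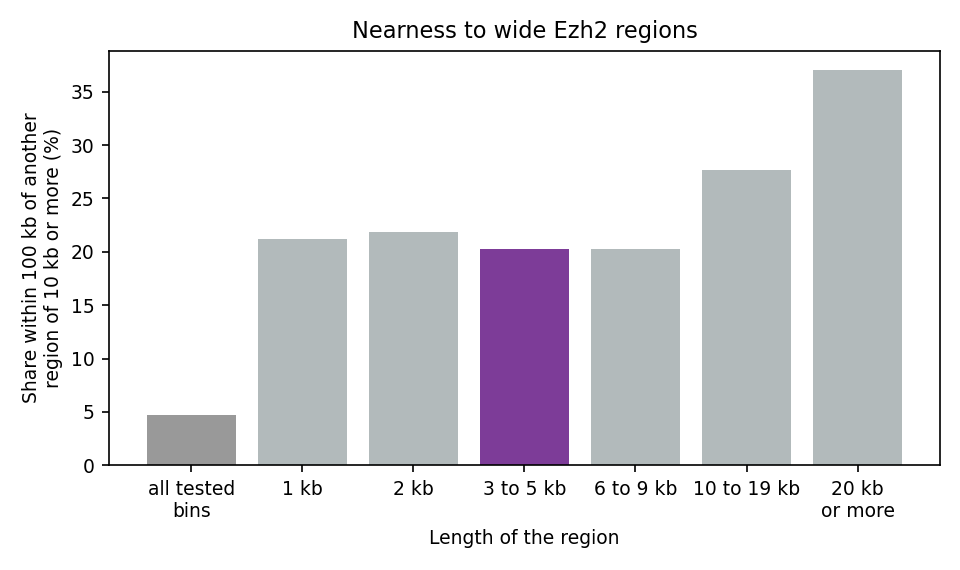
Share (vertical axis, %) of regions that lay within 100 kb of another region of 10 kb or more, by length of the region (horizontal axis), with all tested 1 kb bins as the first bar. Short regions stand at 20.3%, beside 4.69% of tested bins and 37.0% of regions of 20 kb or more.

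Most short regions nevertheless had some called region nearby. The nearest region of any length was 10 kb away at the median, it lay within 5 kb in 507 cases (33.2%) and within 10 kb in 732 (47.9%). Another region lay within 10 kb of 8.23% of all tested bins. The nearest other region of at least 3 kb was 95 kb away at the median. No called region lay within 100 kb of 308 short regions (20.1%), so these stood alone. Among all tested bins only 36.5% had a called region within 100 kb, so standing alone was rarer for short regions than for bins at large.

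The short regions that stood alone had higher median folds than those beside wide regions. Within 100 kb of a wide region, the median fold was 3.05 in Th1 and 3.30 in Th2. From 100 kb to 1 Mb it was 3.32 and 3.73, and at 1 Mb or more it was 3.44 and 4.30. Where no called region lay within 100 kb, it was 3.56 and 4.63. The regions of this last set also belong to the sets at 100 kb to 1 Mb or at 1 Mb or more. The control antibody medians in these 4 sets were 1.06-fold, 1.01-fold, 1.04-fold and 1.12-fold over the Th1 input. The share of 3 kb regions was 53.9%, 44.3%, 44.2% and 40.3% in the same order, so the sets also differ in length.

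The balance between Th1 and Th2 also differed by distance. The ratio of Th1 to Th2 Ezh2 positions was divided by its median over the 2902 regions of 3 kb or more, 0.617, and is called the relative ratio below. Above 1 it means more Ezh2 positions in Th1 than in that median region. Within 100 kb of a wide region its median was 1.12, and 199 of 310 short regions (64.2%) were above 1. From 100 kb to 1 Mb the median was 1.06, with 347 of 576 (60.2%) above 1. At 1 Mb or more it was 0.965, with 286 of 643 (44.5%) above 1. The side of 1 depended on the scaling. Over the ratio of the library totals the medians were 0.954, 0.906 and 0.824, with 131, 199 and 145 regions above 1. Over the ratio in the uncalled bins within 500 kb of each region they were 0.909, 0.842 and 0.803. The median of 0.617 and the ratio of library totals are each 1 constant for all regions, so the order of the classes is the same under both by design. The local ratio varies by region, and with it the median was also highest near wide regions and lowest far from them. These classes were compared without a test, on 1 library for each cell type.

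The farthest short regions from a wide region were on chromosome X, where wide regions were few and sequenced positions were sparser. The region from 49964001 to 49968000 lay 40558 kb away and had 38 Ezh2 positions in Th1 and 69 in Th2, over 11 and 5 input positions. Its Ezh2 folds were 4.82 (2.49 to 10.8) and 10.9 (4.85 to 37.7), and with the input of the other cell type they were 8.33 and 6.29. The others lay at 55171001 to 55175000, 35351 kb away, with folds of 3.65 and 10.4, and at 165231001 to 165236000, 31589 kb away, with folds of 5.94 and 5.19. At the other end, 3 regions of 5 kb lay 2 kb from a wide region. They were on chromosome 11 from 101035001 to 101040000 (Ezh2 folds of 3.0 in Th1 and 3.32 in Th2), chromosome 10 from 79774001 to 79779000 (2.53 and 3.19) and chromosome 4 from 151721001 to 151726000 (4.11 and 3.14). With a gap of 2 bins allowed in place of 1, such pairs would be merged.

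Short regions were spread unevenly over the chromosomes. Chromosome 11 held 141 of them, or 12.7 per 10 Mb of tested bins, and chromosome 19 held 66, or 12.3. The lowest densities were on chromosome X, with 19 regions or 3.07 per 10 Mb, and on chromosome 16, with 4.54 per 10 Mb. The density of wide regions followed a similar but not identical order, with a Spearman rho of 0.780 and a Pearson r of 0.886 over 20 chromosomes, given as a description. Chromosome X held 399133 Th1 input and 236738 Th1 Ezh2 positions, against 946610 and 612321 on chromosome 3, which is of similar length. Fewer positions make a bin harder to call and a long region harder to reach. The chromosomes share the libraries and differ in gene density, base composition and positions per bin, and the part these play was not tested.

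The strongest short regions were bound in both cell types. Ranked by the lower bound of the interval of the summed fold, the first was on chromosome 1 from 173007001 to 173010000. It held 51 Ezh2 positions in Th1 and 95 in Th2, over 4 and 8 input positions and 3 control positions. Its folds were 16.5 in Th1 (6.75 to 70.0) and 9.66 in Th2 (4.98 to 24.3), and few input positions make these wide. With the input of the other cell type the folds were 7.21 and 22.1, so their order turned. The nearby bins from 173005001 and from 173010001 held no Ezh2, input or Th1 control positions and could not be called. Called bins lay beyond them, from 173004001 and from 173012001. The length of this region thus rests in part on empty bins. The next 4 were all 5 kb long. The region on chromosome 8 from 87228001 to 87233000 held 231 and 350 Ezh2 positions over 40 and 31 of input, at 8.24-fold (5.93 to 12.0) and 9.56-fold (6.71 to 14.5). Its 5 bins held 21, 68, 66, 49 and 27 Ezh2 positions in Th1 and 36, 121, 110, 52 and 31 in Th2, so the peak lay in the same bin in both.

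The other 3 of this group also had close folds in both cell types when each was set over its own input. Chromosome 2 from 25431001 to 25436000 held 251 and 431 Ezh2 positions, the latter the most of any short region in Th2, at 8.53-fold in Th1 and 7.98-fold in Th2. Chromosome 15 from 39027001 to 39032000 stood at 8.05-fold and 9.36-fold, with the control antibody at 2.00-fold. Chromosome X from 70880001 to 70885000 stood at 8.60-fold and 10.0-fold, with the control at 0.808-fold. The genes in these places were not placed.

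The weakest short regions were at most 2.42-fold over input in both cell types, with 1 exception in Th1. The lowest was on chromosome 17 from 30118001 to 30121000, with 39 and 53 Ezh2 positions over 28 and 28 of input, with folds of 2.00 for Th1 (1.20 to 3.39) and 1.61 for Th2 (1.01 to 2.67). The others were on chromosome 5 from 33802001 (2.13-fold and 1.79-fold), chromosome 2 from 93230001 (1.88-fold and 2.26-fold), chromosome 17 from 80355001 (2.42-fold and 1.75-fold) and chromosome 10 from 42699001 (3.0-fold and 1.40-fold). The last was the exception, and with the input of the other cell type its folds were 1.80 and 2.34. Those of the region on chromosome 17 from 80355001 were then 3.65 and 1.16. All 5 were 3 kb long. A merged region may include an uncalled bin, so its own fold can fall below 2. Every bin was called in 857 short regions (56.0%).

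The Th1 and Th2 libraries were then compared region by region, given their sum. The two-sided exact binomial p was adjusted by the method of Benjamini and Hochberg over all 2902 regions of 3 kb or more, and a call also needed a relative ratio of at least 2 either way. By this rule 20 short regions (1.31%) had more Ezh2 positions in Th1, where 0.724% of all 2902 regions did. In Th2, 14 (0.916%) had more, where 0.586% of all regions did. By the adjusted p alone the numbers were 77 (5.04%) and 56 (3.66%), against 5.00% and 7.06% of all regions. An unadjusted exact p below 0.05 was reached in 306 short regions (20%), against 24.2% of all regions. Of the 2-fold calls, 16 of 20 and 12 of 14 were regions of 3 kb, and among the 1373 regions of 6 kb or more there were 1 and 3.

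The split depended on the expected ratio. Taking the ratio of the library totals gave 7 regions with more in Th1 and 46 with more in Th2, and taking the median over regions of any length gave 11 and 29. With the uncalled bins within 500 kb of each region as its expected ratio the numbers were 4 and 46. When that local ratio was scaled to a median of 1 over the 2902 regions they were 15 and 6. The balance of the calls turned with these choices, so no direction is given for the set as a whole. In the 5 settings planned for this comparison, 4 of the 20 and 7 of the 14 were called every time.

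The 20 regions with more Ezh2 in Th1 had relative ratios from 2.04 to 5.47, with a median of 2.26. Their Ezh2 folds over input ranged from 2.42 to 10.1 in Th1 and from 1.43 to 4.66 in Th2, and 9 of them were below 2-fold in Th2. When each cell type was called against its own input, each of the 20 held a bin called in Th1, and 5 also held one called in Th2. These folds and calls use the Ezh2 counts that chose the 20 regions, so their direction follows largely from the choice. A wide region lay within 100 kb of 4 of them, and none within 1 Mb of 8. Over all short regions these shares were 20.3% and 42.1%. The control antibody reached 1.5-fold over input at 4, a share that was not counted over all short regions. Its median fold in Th1 was 1.15 at the 20 regions, against 1.06 over all regions of 3 kb.

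The largest difference was at the region on chromosome 17 from 87153001 to 87156000, the place of Epas1. It held 143 Ezh2 positions in Th1 and 42 in Th2, over 20 and 21 input positions and 11 of the Th1 control antibody. Its 3 bins held 39, 67 and 37 positions in Th1, and 16, 17 and 9 in Th2. The 5 bins before it held 6 to 14 positions in Th1 and 4 to 14 in Th2, and the 5 bins after it held 5 to 21 in Th1 and 7 to 9 in Th2. The Th1 counts in the region stood above those on both sides. Just after it Th1 was still the higher, with 21, 18, 14 and 17 positions a bin against 7, 7, 8 and 8 in Th2. In the last of the 5 bins it was lower, with 5 against 9. The Th1 excess was thus not confined to the region. Ezh2 was 10.1-fold over input in Th1 (6.43 to 17.4), against 1.70-fold in Th2 (0.995 to 3.06). The relative ratio was 5.47 (3.89 to 7.98), with an adjusted p of 6.77e-24 in the exact binomial test. Counting all reads gave 282 in Th1 and 67 in Th2. The nearest wide region was 1057 kb away, and the nearest region of any length 187 kb.

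The region at the start of Slc6a4, on chromosome 11 from 76809001 to 76814000, was bound in both cell types and more in Th1. It held 226 and 145 Ezh2 positions, over 52 and 36 input positions and 29 control positions. Its bins held 42, 43, 51, 45 and 45 positions in Th1 and 22, 22, 25, 43 and 33 in Th2. The excess of Th1 was thus larger in the first 3 bins, and in the last 2 the counts were closer. The 5 bins before the region held 14 to 23 positions in Th1 and 7 to 17 in Th2. The 5 bins after it held 16 to 20 in Th1 and 10 to 19 in Th2. Th1 was the higher in most of these flanking bins too, so its excess was not confined to the region. Its Ezh2 folds over input were 6.22 for Th1 (4.62 to 8.64) and 3.43 for Th2 (2.39 to 5.14). The relative ratio was 2.52 (2.04 to 3.13), with an adjusted p of 3.91e-16 in the exact binomial test. It was 2.15 with library totals as the expected ratio and 1.82 with the uncalled bins within 500 kb, below the limit of 2 for a call.

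The other regions with more Ezh2 in Th1 rested on fewer positions. Chromosome 11 from 57479001 to 57482000 held 54 in Th1 and 27 in Th2, a relative ratio of 3.21 (2.01 to 5.35), with the control antibody at 2.07-fold over input. The 5 bins on each side of it also held more in Th1, with 9 to 20 positions a bin, against 4 to 14 in Th2. Chromosome 9 from 64784001 to 64787000 held 53 and 31, a relative ratio of 2.75 (1.75 to 4.47). Chromosome 19 from 41676001 to 41679000 held 50 and 30, a relative ratio of 2.68 (1.68 to 4.40). Next in order were chromosome 17 from 80355001 (44 and 29 positions), chromosome 9 from 61011001 (54 and 36), chromosome 11 from 102692001 (52 and 36), chromosome 16 from 18636001 (51 and 36) and chromosome 4 from 140857001 (90 and 64). Their relative ratios lay between 2.27 and 2.44, and their intervals overlapped each other. The region on chromosome 16 lay 3 kb from a wide region and that on chromosome 11 lay 5 kb from another.

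The 14 regions with more Ezh2 in Th2 had Th2 to Th1 relative ratios from 2.05 to 2.74, with a median of 2.25. Ezh2 was below 2-fold over input in Th1 at 7 of them, and between 3.0-fold and 7.48-fold in Th2. When each cell type was called against its own input, 13 of the 14 held a bin called in Th2 and 1 held one called in Th1. The Ezh2 counts behind these folds and calls also chose the 14 regions, so their direction follows largely from the choice. A wide region lay within 100 kb of 1 of them, and none within 1 Mb of 9, where the shares over all short regions were 20.3% and 42.1%. The control antibody reached 1.5-fold over input at 4, a share that was not counted over all short regions. Its median fold in Th1 was 1.21 at the 14 regions, against 1.06 over all regions of 3 kb.

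The highest Th2 to Th1 ratio rested on the fewest Th1 positions. Chromosome 11 from 95799001 to 95802000 held 14 Ezh2 positions in Th1 against 64 in Th2, giving a Th2 to Th1 relative ratio of 2.74 (1.57 to 5.45), with the control antibody at 2.07-fold. Chromosome 11 from 82246001 to 82249000 held 22 and 94, and chromosome 16 from 21692001 to 21695000 held 27 and 115, both with a ratio of 2.59. The region on chromosome 2 from 104655001 to 104658000 held 24 and 101, at 1.12-fold over input in Th1 (0.627 to 1.96), against 5.29-fold in Th2 (3.18 to 9.85). With the input of the other cell type these folds were 1.77 and 3.35. Chromosome 3 from 34540001 (18 and 71), chromosome 1 from 69729001 (22 and 83), chromosome 2 from 59962001 (25 and 91) and chromosome 5 from 21849001 (21 and 73) had ratios between 2.11 and 2.38. The control antibody reached 2.11-fold at the region on chromosome 1 and 1.96-fold at the one on chromosome 5.

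The longer regions of this group carried more positions. Chromosome 5 from 52504001 to 52508000 held 45 Ezh2 positions in Th1 and 171 in Th2, over 24 and 24 input positions and 11 control positions. The Ezh2 folds were 2.68 for Th1 (1.61 to 4.64) and 6.02 for Th2 (3.98 to 9.82), and the Th2 to Th1 relative ratio was 2.33 (1.68 to 3.33), with an adjusted p of 4.06e-06 in the exact binomial test. It was isolated, with 449 kb to the nearest region and 10344 kb to the nearest wide one. Chromosome 19 from 30622001 to 30626000 held 34 and 117 Ezh2 positions, over 34 and 13 input positions. Its bins held 8, 10, 8 and 8 positions in Th1 and 28, 38, 23 and 28 in Th2, so the difference was present in every bin. The Ezh2 folds were 1.44 for Th1 (0.869 to 2.39) and 7.48 for Th2 (4.35 to 15.0). With the input of the other cell type they were 3.04 and 3.55, so the gap between the folds was much smaller.

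**Figure D3:**
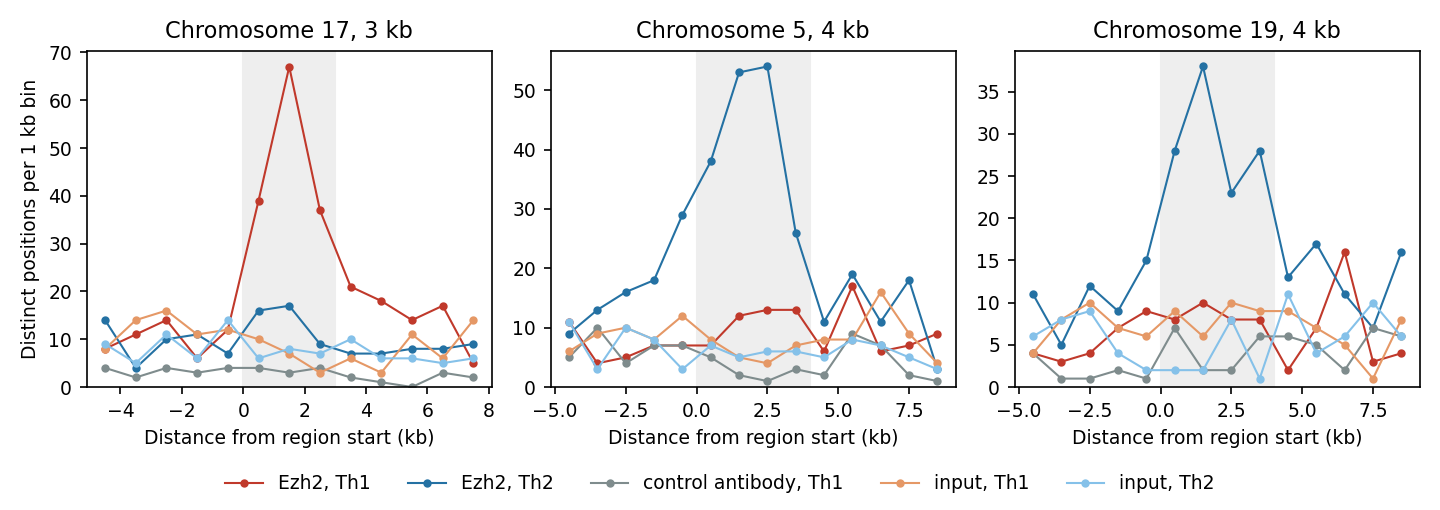
Distinct positions per 1 kb bin (vertical axis) against the distance from the start of the region (horizontal axis, kb) at 3 short regions, with the region shaded and 1 line for each library. On chromosome 17 the Th1 Ezh2 line rises to 67 inside the region and the Th2 line to 17, while on chromosomes 5 and 19 the Th2 Ezh2 line is the higher one.

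A second comparison brought in the inputs. A conditional exact test asked whether the fold over input differed between Th1 and Th2 relative to its median over the same 2902 regions. It passed at 1 short region with more in Th1, where 0.103% of all regions passed, and at 1 with more in Th2, where 0.207% passed. An unadjusted exact p below 0.05 was reached at 139 short regions (9.09%), against 9.89% of all regions. The 1 in Th1 was the Epas1 region on chromosome 17, at a ratio of 7.19 with an adjusted p of 2.25e-04 in the exact test. The 1 in Th2 was the region on chromosome 19 from 30622001, at a ratio of 0.233 with an adjusted p of 0.0294 in the exact test. With the library totals as the expected ratio the numbers were 2 and 23, beside 4 and 134 of all 2902 regions, and with a p summed over outcomes no more likely than the observed one they were 3 and 1. At the Slc6a4 region the ratio was 2.20 and the adjusted p in the exact test was 0.171. The ratio of folds pointed the same way as the ratio of positions at all 20 regions with more in Th1 and all 14 with more in Th2. The ratio of positions is part of the ratio of folds, and it chose these regions at 2-fold or more. The shared direction thus follows largely from the choice and is no separate evidence. It was at least 2-fold at 16 of the 20 and at 6 of the 14.

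**Figure D4:**
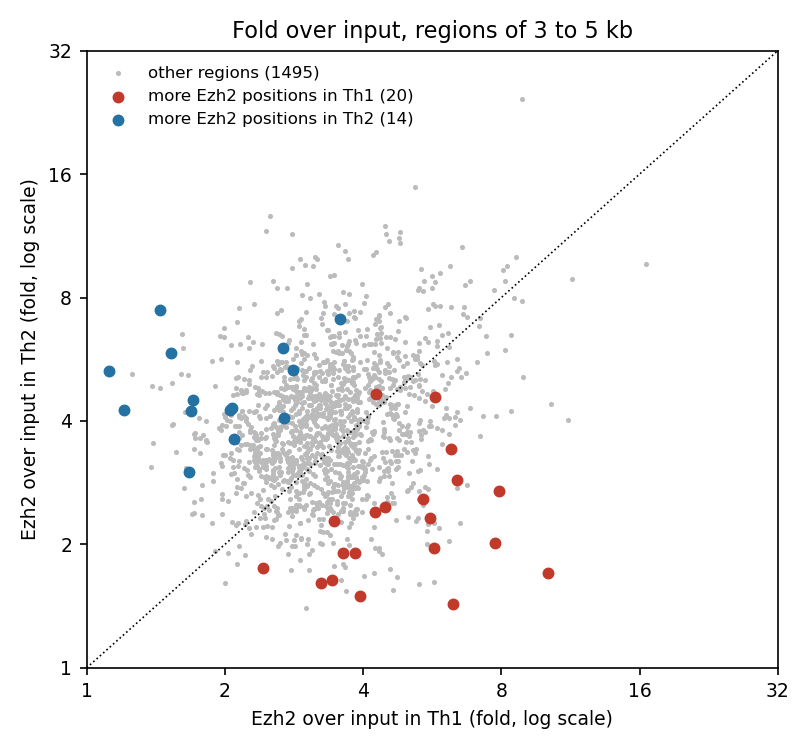
Ezh2 over input in Th2 (vertical axis, fold, log scale) against Th1 (horizontal axis, fold, log scale) for the 1529 short regions, 1 point for each, with a dotted line where both are equal. The 20 regions with more Ezh2 positions in Th1 lie to the right, between 2.42-fold and 10.1-fold in Th1, and the 14 with more in Th2 lie above the line, between 3.0-fold and 7.48-fold in Th2.

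Across short regions as a whole, the Th1 to Th2 ratio varied more than counting error would give. The SD of the log2 ratio over the 1529 regions was 0.41, where counting error accounted for 0.25. The SD beyond counting error was 0.33, which made up 63.5% of the variance. This SD was 0.37 over regions of 3 kb, 0.28 at 4 kb, 0.27 at 5 kb, 0.25 at 6 to 9 kb, 0.21 at 10 to 19 kb and 0.17 at 20 kb or more. Longer regions thus had closer Th1 to Th2 ratios even after counting error was taken off. Uncalled windows of 4 kb gave 0.30, so a spread of this size was also present outside called regions. Between the 2 inputs the SD beyond counting error was 0.21 in short regions and 0.21 in uncalled windows. In the inputs it fell with length too, to 0.16 at 6 to 9 kb, 0.12 at 10 to 19 kb and 0.07 at 20 kb or more. The fall with length is thus not particular to Ezh2. Each value is a spread over regions within 1 pair of libraries, with no replicate to show what 2 libraries of 1 cell type would give.

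The spread was also a little wider far from wide regions, with an SD beyond counting error of 0.27 within 100 kb, 0.31 from 100 kb to 1 Mb and 0.34 at 1 Mb or more. The rank correlation of the Th1 and Th2 folds over the short regions was 0.188 (Spearman rho, n = 1529). It was 0.026 at 3 kb, 0.211 at 4 kb, 0.345 at 5 kb and 0.529 in regions of 6 to 9 kb. The regions share the libraries, and they were chosen on the sum, so that a region low in one Ezh2 library had to be high in the other. The values are given as a description.

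**Figure D5:**
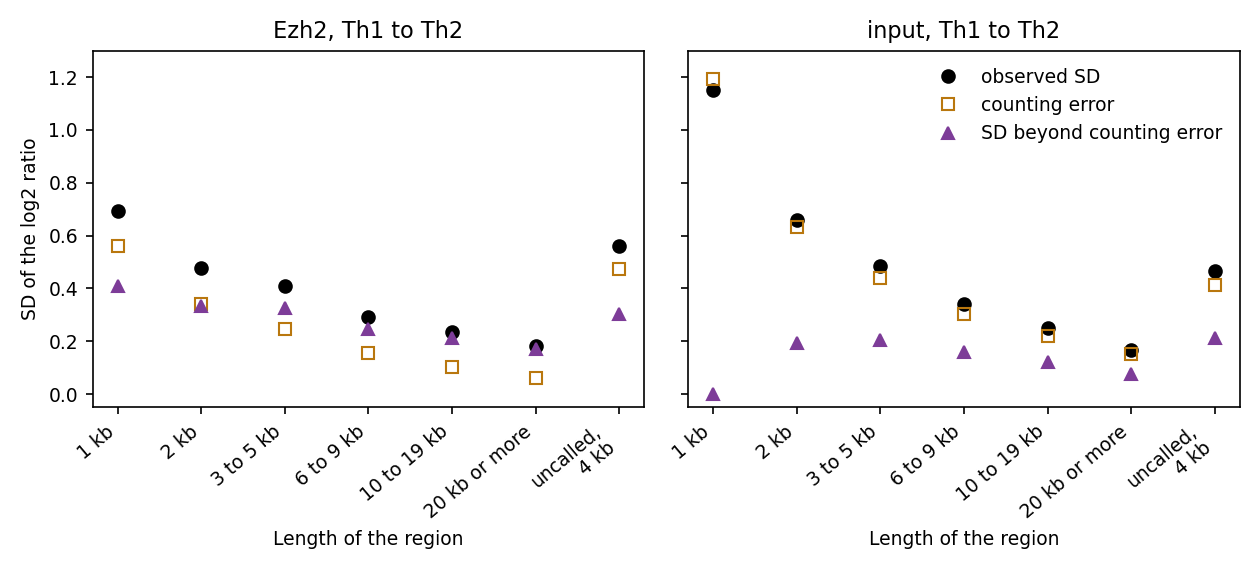
SD of the log2 Th1 to Th2 ratio of positions (vertical axis) by length of the region (horizontal axis), for the Ezh2 libraries on the left and the inputs on the right. Filled circles are the observed SD, open squares the part due to counting and triangles the SD beyond counting error. For Ezh2 the triangles fall from 0.33 at 3 to 5 kb to 0.17 at 20 kb or more, and for the inputs from 0.21 to 0.07.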

How the data were processed

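The deposited values are read counts: per the file headers and values, the authors' files list genomic intervals, not their strand, and how many reads each had, with no normalization. The submitters' processing notes name CASAVA and mm9. Per the labels' protocols, gel-cut fragments of 170 to 250 bp went through 18 PCR cycles and 36 sequencing cycles. Alignment settings, filters and read extension are not given in the sources used here. Nearly all intervals (more than 99.999%) were 119 bases long.

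Distinct positions were counted once, which limits PCR duplicates, and 0.5 was added to counts in folds. Chromosomes 1 to 19 and X were used. The Th2 control antibody file ended inside chromosome 17, so only its 8 whole chromosomes were used. Two-sided exact p-values were 2 times the smaller tail. Named regions were the 5 highest and 5 lowest by the lower bound of the summed fold, up to 10 called each way by ratio, all passing the test of folds, the 3 farthest from and 3 nearest to a wide region, and the 3 with the highest control fold. The members and lists were chosen with earlier results of these data known. Genes and promoters were to be counted with an mm9 annotation, and this was not done because none was used. The scripts' statistics were tested on simulated data, using Python 3.11.15, numpy 2.4.6, pandas 2.3.3 and scipy 1.17.1.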

Additional observations from a re-analysis of the deposited data

Results flagged for a closer look

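At 2 short regions the fold of Ezh2 over input differed between Th1 and Th2 by the conditional exact test over 2902 regions. At chromosome 17 from 87153001, the ratio of the Th1 fold to the Th2 fold was 7.19 relative to the median region. At chromosome 19 from 30622001 it was 0.233, and there the Th1 input had 34 positions against 13 in the Th2 input. With the inputs exchanged, its folds were 3.04 in Th1 and 3.55 in Th2, and by Ezh2 positions it was called in 4 of the 5 planned settings. Both compare 1 library with 1 library, and a replicate of neither cell type was available.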

How the results depend on the processing

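With 1 library in each group, no library could be left out. No paired analysis was possible because replicates were lacking. Counts below are given as Th1 and Th2 in that order. No call at a single region reversed, but the balance of Th1 against Th2 calls turned with the expected ratio. The number of short regions, 1529, became 6807 with all deposited reads and 879 at a fold of 4 or more with an adjusted p below 0.001, and it stayed between 1368 and 1577 with bins moved by 500 bases, other gaps or no minimum of positions. Of the 1529 regions, 95.9% overlapped a region called on the moved bins and 65.3% one called by the stricter rule. The share within 100 kb of a wide region was 10.4% under the stricter rule, 23.1% with a gap of 2 bins and 7.46% when wide meant 20 kb or more. The median folds, 3.34 and 3.88, became 3.41 and 3.75 with the other input, 4.77 and 5.46 when scaled by background bins, and 3.21 and 3.62 with the Th1 control antibody as background. With all reads the Th1 median became 3.20. The calls of 20 and 14 became 7 and 46 with library totals, 11 and 29 with the median over regions of any length, 4 and 46 with uncalled bins within 500 kb, and 77 and 56 by the adjusted p alone. They were 27 and 21 with all reads and 25 and 14 with the larger library thinned. Chosen after seeing the data were a p summed over outcomes no more likely (20 and 14), the median over short regions as the expected ratio (18 and 17) and the uncalled bins within 500 kb scaled to a median of 1 over the 2902 regions (15 and 6). The calls by fold, 1 and 1, became 2 and 23 with library totals and 3 and 1 with the p summed over outcomes. The SD beyond counting error, 0.33, became 0.30 with local expected ratios, 0.41 with all reads and 0.27 without the called regions, the last also chosen after seeing the data. The control fold, 1.03, became 1.08 against the median of tested bins. The alternative of gene starts within 1 kb was not run, as genes were not placed. The causes were not tested. Depth limits single regions: a median short region held 61 and 95 Ezh2 positions. The counting SD of the log2 ratio, from the mean counting variance over all short regions, was 0.25.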
